A study of Homo sapiens with 15 samples.

Results

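Frizzled receptors and secreted WNT antagonists were measured in HCT116 cells, a human colorectal cancer line, after 24 h with thymoquinone (TQ), 5-fluorouracil (5-FU), both drugs together (Combi) or SARB, a hybrid obtained by joining TQ and 5-FU through an ester. The set was taken by gene symbol from the panel and holds 10 of the 730 endogenous genes, with 6 receptors (FZD2, FZD3, FZD7, FZD8, FZD9 and FZD10) and 4 antagonists (DKK1, DKK2, DKK4 and SFRP1). The control was untreated HCT116 cells. TQ was given at 40 µM, 5-FU at 15 µM, Combi as 35 µM TQ with 35 µM 5-FU, and SARB at 35 µM, with 3 samples in each of the 5 groups. All samples came from this 1 cell line. The doses of TQ and 5-FU within Combi differ from those given singly, so Combi was not set against either drug here.

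WNT proteins are secreted ligands that bind Frizzled receptors, which cross the membrane, together with the co-receptors LRP5 and LRP6. In the canonical branch this binding stabilizes β-catenin, which joins TCF/LEF factors in the nucleus and switches on target genes. DKK1, DKK2 and DKK4 bind the LRP co-receptors, whereas SFRP1 carries a Frizzled-like domain and binds WNT proteins themselves. Many colorectal cancers, and the HCT116 line through a mutation of β-catenin, have this branch active below the receptor, and DKK1 and DKK4 are themselves known as targets of β-catenin and TCF.

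DKK1 was the one member called higher under a treatment, and its start region is shown because the RefSeq promoter table held it. In GRCh38.p14 the gene spans chr10:52314281-52317657. The promoter table covered 3 of the 10 members (DKK1, FZD8 and FZD9). The window lies at chr10:52314031-52314330 on the plus strand of the same build, from 250 bases before the annotated start to 50 bases after it. Capitals mark 2 motifs, a TATA box (TATAAA) and the core shared by TCF/LEF sites (CTTTG, or CAAAG when read on the other strand).

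DKK1: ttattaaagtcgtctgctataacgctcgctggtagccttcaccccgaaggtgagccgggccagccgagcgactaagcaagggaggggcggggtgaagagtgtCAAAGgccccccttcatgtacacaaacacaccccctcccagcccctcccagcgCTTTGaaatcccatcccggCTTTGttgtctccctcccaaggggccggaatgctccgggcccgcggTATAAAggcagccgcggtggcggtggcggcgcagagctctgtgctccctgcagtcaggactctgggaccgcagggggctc

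TATAAA was found once, beginning 30 bases before the start, and 11.5% of 35116 promoters of the same length held it on either strand. The CTTTG core was found 3 times, beginning 148, 95 and 76 bases before the start, the first of these on the minus strand. Since 47.5% of the promoters held that core, these matches describe the letters of the window and do not show that a factor binds there.

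Transcripts were counted on a NanoString nCounter cancer pathway panel, in which a probe pair with a colour barcode captures each transcript and barcodes are counted without amplification. Totals of the endogenous genes lay between 135017 and 607782 counts per sample. The raw count divided by a factor per sample, which brings the 40 housekeeping genes to a common geometric mean, is called the scaled count. A member was above background in a sample when its raw count exceeded the mean of the 8 negative probes by more than 2 SD, a threshold between 6.23 and 26.4 raw counts. A gene was called higher or lower when edgeR's quasi-likelihood test gave a fold change of at least 1.5 and a p, adjusted over the 730 genes after Benjamini and Hochberg, no greater than 0.05. Scaled counts of different genes come from different probes and were not compared with each other. The panel held 8 of 12 listed epithelial markers, and all 8 were above background in every sample. Of 5 fibroblast markers, 4 were above background in no sample of each group, and the remaining marker was above it in all samples of the 4 treated groups. Of 3 blood markers, 1 was above background in all TQ and all Combi samples. The endothelial marker FLT1 was above background in no sample of control, 5-FU or Combi and in some samples of TQ and SARB.

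FZD3, FZD7 and DKK1 were above background in all 15 samples. DKK4 was above it in 11 samples, FZD2 and SFRP1 in 9 each, DKK2 in 8, FZD8 and FZD9 in 5 each, and FZD10 in 0. The background itself differed between groups after scaling. The negative probes averaged 14.9 scaled counts over the control samples, with a range of 10.4 to 18.3, and 5.46 over the TQ samples, with a range of 3.15 to 6.80. They averaged 9.51 for 5-FU (7.46 to 12.4), 9.39 for Combi (6.44 to 13.0) and 7.83 for SARB (2.84 to 14.5). For the 7 members near the background, a lower scaled count in a treated group therefore stands beside a lower background, whose part in the result was not tested. Of the 3 cartridges, the first carried the TQ, 5-FU and SARB samples and control replicate 1. The other controls shared the second with Combi replicate 1, and the third carried the remaining Combi samples.

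Among the receptors, FZD3 was lower in 5-FU and in SARB, and FZD7 was lower in SARB. FZD3 binds WNT ligands and is known above all for axon guidance and planar cell polarity, and FZD7 is the Frizzled most often described in stem cells of the gut. Neither receptor was called in TQ or in Combi.

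FZD3 gave 157, 167 and 178 scaled counts in control, 122, 107 and 152 in TQ, and 87.9, 98.2 and 98.8 in 5-FU. It gave 134, 163 and 170 in Combi and 94.3, 132 and 89.7 in SARB. The 5-FU samples were the tightest and all lay below every control and Combi sample, the SARB samples also lay below both, and Combi overlapped with control. Against control, FZD3 fell by 0.82 on the log2 scale in 5-FU (standard error 0.18, adjusted p = 0.00120) and fell by 0.69 in SARB (standard error 0.17, adjusted p = 0.00322). The change in TQ was -0.42 (adjusted p = 0.0658), and that in Combi was -0.09 with a 95% interval from -0.44 to 0.25. The call in 5-FU held under every alternative run, with log2 fold changes between -0.91 and -0.61. The call in SARB did not: FZD3 gave -0.34 after TMM normalization, -0.34 with DESeq2's size factors, -0.61 (adjusted p = 0.0836) with cartridge as a block and -0.58, under the fold threshold, without SARB replicate 3. In TQ, the log2 fold change turned to 0.046 after TMM and 0.082 with DESeq2.

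FZD7 (chr2:202033855-202038441 in GRCh38.p14) gave 75.3, 84.7 and 98.6 scaled counts in control, 74.0, 102 and 68.2 in TQ, and 65.1, 55.6 and 60.5 in 5-FU. It gave 94.9, 65.1 and 73.5 in Combi and 54.8, 46.7 and 59.9 in SARB. All SARB and all 5-FU samples lay below the lowest control sample, whereas TQ and Combi overlapped with control. FZD7 fell by 0.66 on the log2 scale in SARB (standard error 0.20, adjusted p = 0.0150). In 5-FU its change was -0.51, which did not pass (adjusted p = 0.0772). The change was -0.04 in TQ and -0.17 in Combi. The SARB call was lost after TMM (-0.27), with DESeq2 (-0.27), with cartridge as a block (-0.46), without control replicate 3 (-0.55) and without SARB replicate 2 (-0.58). In TQ the sign turned after TMM (0.46) and DESeq2 (0.48).

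**Figure D1:**
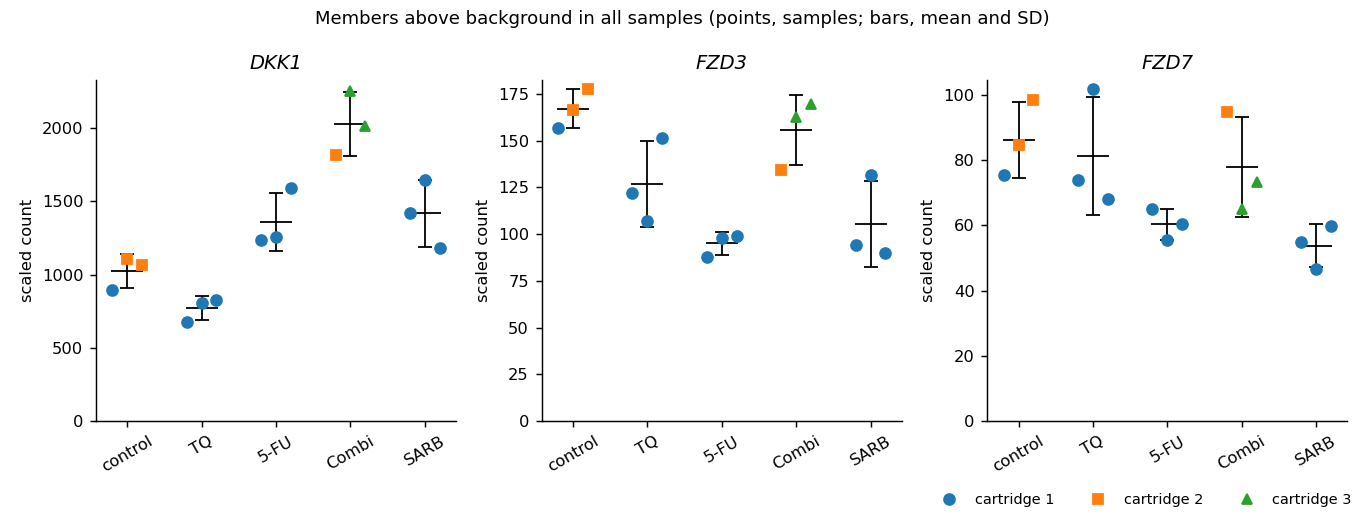
Scaled counts (y axis, linear from 0) of DKK1, FZD3 and FZD7 in the 3 samples of each group (x axis), with the group mean and SD as bars and the cartridge as colour and shape. DKK1 is highest in Combi (1820 to 2252) and lowest in TQ (677 to 828), while FZD3 lies lowest in 5-FU and SARB.

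The other receptors were near the background. FZD2 gave 33.8, 14.8 and 16.4 scaled counts in control, 17.4, 18.1 and 6.06 in TQ, and 19.5, 16.6 and 24.7 in 5-FU. It gave 18.2, 22.01 and 21.8 in Combi and 23.1, 24.0 and 19.2 in SARB. Control replicate 1 stood above the other controls, and every treated group overlapped with control. No change of FZD2 passed the test, the log2 fold changes against control running from -0.59 in TQ to 0.03 in SARB. FZD8 lay between 5.48 and 22.2 scaled counts over the 15 samples, and FZD9 between 5.91 and 20.2. For FZD8 the group means ran from 9.94 ± 4.93 (SD, n = 3) in TQ to 15.2 ± 3.18 in control, and all groups overlapped with control. For FZD9 the means ran from 8.67 ± 2.45 in TQ to 16.8 ± 3.18 in control, with TQ, 5-FU and SARB samples all below control and Combi overlapping. The log2 fold change of FZD9 in TQ was -1.05 (adjusted p = 0.0823), and neither FZD8 nor FZD9 was called in a comparison.

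FZD10 gave 12.3, 9.41 and 8.96 scaled counts in control, 2.18, 2.74 and 1.52 in TQ, and 6.51, 5.91 and 8.65 in 5-FU. It gave 9.09, 9.84 and 12.2 in Combi and 7.71, 4.79 and 1.75 in SARB. All of these lay under the threshold of their sample. FZD10 met the call in TQ (adjusted p = 0.0155), but a level under background in both groups gives no fold change of the transcript, and the mean of the negative probes was lower in TQ as well. The call was lost after TMM normalization (adjusted p = 0.0592), with the authors' background-subtracted values (adjusted p = 0.574), with counts under 20 set to 20, with cartridge as a block (adjusted p = 0.108) and without TQ replicate 2 (adjusted p = 0.0615). Setting counts under 20 to 20 gave every control and TQ sample a raw count of 20, so that setting says nothing about FZD10 in TQ. Without SARB replicate 1, FZD10 was called in SARB as well (adjusted p = 0.0297).

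Among the antagonists, DKK1 was higher in Combi, and DKK2 and DKK4 were lower in TQ and in SARB. SFRP1 was not called in a comparison. In SARB, DKK1 lay above control while DKK2 and DKK4 lay below it, although all 3 encode inhibitors that act on the LRP co-receptors. The DKK1 change in SARB stayed under the fold threshold, and DKK2 and DKK4 were each above background in 1 of 3 SARB samples.

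DKK1 gave 895, 1110 and 1067 scaled counts in control and 677, 809 and 828 in TQ. It gave 1234, 1259 and 1590 in 5-FU, 1820, 2252 and 2013 in Combi, and 1424, 1644 and 1185 in SARB. Every TQ sample lay below control and every 5-FU, Combi and SARB sample above it, and the lowest Combi sample was above the highest of all other groups. In order of the mean, DKK1 stood at 771 ± 82.2 in TQ (SD, n = 3), 1024 ± 114 in control, 1361 ± 199 in 5-FU, 1418 ± 230 in SARB and 2028 ± 217 in Combi. 5-FU and SARB, neighbours in this order, overlapped, and the other neighbours did not. The log2 fold change was 0.99 in Combi (standard error 0.14, adjusted p = 8.69e-06, 1.98-fold), and this call held under every alternative run, with values from 0.74 to 1.08. The lowest, 0.74 with cartridge as a block, rests on Combi replicate 1 alone, since the third cartridge held no control.

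Smaller changes of DKK1 passed the adjusted p but not the fold threshold in the other 3 treatments. They were 0.41 in 5-FU (standard error 0.14, adjusted p = 0.0293), 0.47 in SARB (standard error 0.14, adjusted p = 0.0107) and -0.40 in TQ (standard error 0.14, adjusted p = 0.0306). DKK1 was called higher in 5-FU and SARB after TMM normalization (0.60 and 0.80), with DESeq2 (0.61 and 0.80) and with cartridge as a block (0.60 and 0.66). The lower level in TQ depended on the scaling, since its log2 fold change was 0.061 after TMM and 0.10 with DESeq2. Within the first cartridge, against control replicate 1 alone, DKK1 stood at -0.21 in TQ, 0.61 in 5-FU and 0.66 in SARB as the log2 ratio of means. Within the second, Combi replicate 1 stood at 0.74 against control replicates 2 and 3.

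DKK2 (chr4:106921802-107036313), which inhibits the canonical branch but can also act as a weak agonist, gave 19.98, 34.9 and 46.3 scaled counts in control. It gave 13.1, 5.48 and 15.2 in TQ, 17.4, 15.4 and 16.1 in 5-FU, 20.2, 16.4 and 20.8 in Combi, and 6.00, 16.8 and 6.12 in SARB. All TQ, 5-FU and SARB samples lay below control, and Combi overlapped with control through the low control replicate 1. DKK2 fell by 1.72 on the log2 scale in TQ (standard error 0.50, adjusted p = 0.0144) and fell by 1.90 in SARB (standard error 0.48, adjusted p = 0.00402). In 5-FU its log2 fold change was -1.05 (adjusted p = 0.0986) and in Combi -0.82 (adjusted p = 0.199). The 5-FU value was called lower without control replicate 1 (-1.31, adjusted p = 0.0465) and in a fit of only these 2 groups (adjusted p = 0.0396).

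DKK4, named in colon cancer as a feedback inhibitor of WNT, gave 24.6, 56.4 and 44.8 scaled counts in control. It gave 15.2, 4.93 and 9.09 in TQ, 15.2, 23.7 and 29.6 in 5-FU, 40.4, 15.5 and 17.0 in Combi, and 12.0, 20.4 and 3.94 in SARB. TQ and SARB lay wholly below control, whereas 5-FU and Combi overlapped with it. DKK4 fell by 2.29 on the log2 scale in TQ (standard error 0.60, adjusted p = 0.00756) and fell by 1.92 in SARB (standard error 0.55, adjusted p = 0.00961). The change was -0.89 in 5-FU (adjusted p = 0.224) and -0.84 in Combi (adjusted p = 0.266).

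The raw counts behind DKK2 and DKK4 were small, from 6 to 39 and from 6 to 42 over all samples. Of the 3 samples a group, DKK2 was above background in 2 of control, 2 of TQ and 1 of SARB. DKK4 was above it in 3 of control, 1 of TQ and 1 of SARB. The sizes of their fold changes therefore rest partly on values under background. After the authors' own background subtraction the direction was the same. DKK2 then read 14.6, 30.8 and 45.1 in control, 9.66, 3.38 and 12.49 in TQ, and 1.16, 6.36 and 4.56 in SARB, on the authors' scale. DKK4 read 21.1, 63.1 and 42.8 in control, 12.7, 2.64 and 4.36 in TQ, and 8.69, 11.4 and 1.71 in SARB. On these values limma called DKK4 lower in TQ (-2.87, adjusted p = 0.0270), and both genes lower in SARB (-3.08, adjusted p = 0.00449 for DKK2 and -2.80, adjusted p = 0.0200 for DKK4), but not DKK2 in TQ (-1.88, adjusted p = 0.0628).

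Control replicate 1, on the cartridge of the TQ and SARB samples, gave the lowest control value of both genes. Against it alone, the log2 ratio of means was -0.83 for DKK2 and -1.33 for DKK4 in TQ, and -1.05 and -1.02 in SARB. With cartridge as a block neither gene was called in TQ (adjusted p = 0.462 and 0.256) or in SARB (adjusted p = 0.303 and 0.324), a fit that rests on 1 control sample. Leaving out TQ replicate 2 ended both calls in TQ (-1.24 and -1.82). Setting raw counts under 20 to 20 before scaling gave -0.51 and -0.75 in TQ, without a call. The TQ raw counts of both genes were all under 20 (6 to 10 and 6 to 9). All of them became 20, so this setting cannot tell whether the genes fell in TQ. DKK2 in TQ was also lost without control replicate 3 (-1.42), and DKK4 in SARB without control replicate 2 (-1.63, adjusted p = 0.0578).

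SFRP1, which binds WNT proteins outside the cell, gave 13.8, 36.3 and 37.3 scaled counts in control, 17.4, 3.29 and 21.2 in TQ, and 8.68, 18.9 and 33.4 in 5-FU. It gave 22.2, 18.3 and 19.7 in Combi and 13.7, 21.6 and 6.12 in SARB. Every treated group overlapped with control, again through control replicate 1. The log2 fold changes were -1.25 in TQ (adjusted p = 0.122), -0.54 in 5-FU, -0.55 in Combi and -1.17 in SARB (adjusted p = 0.126). Without SARB replicate 2, SFRP1 was called lower in SARB (-1.63, adjusted p = 0.0400).

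**Figure D2:**
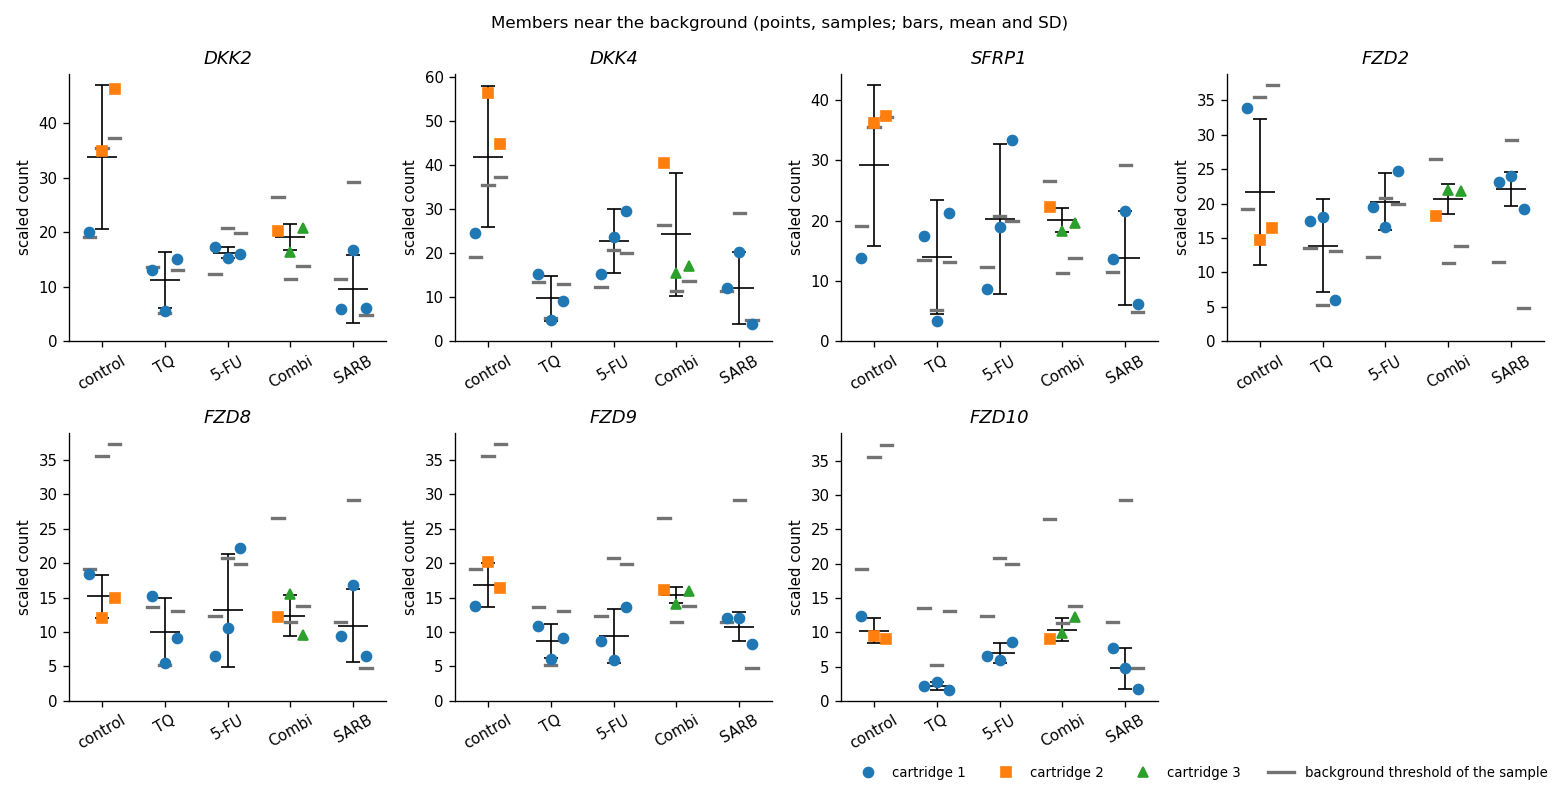
Scaled counts (y axis, linear from 0) of the 7 members near the background in the 3 samples of each group (x axis), with group mean and SD as bars, the cartridge as colour and shape, and a grey tick at the background threshold of each sample. Control replicates 2 and 3 carry the highest values of DKK2, DKK4 and SFRP1 and also the highest thresholds (35.5 and 37.3), and all FZD10 points lie under theirs.

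Set against the whole panel, 3 of the 10 members were called lower in TQ (FZD10, DKK2 and DKK4) where 21.6% of all genes were, and 0 were called higher where 3.42% were. Without FZD10, which was under background throughout, the count in TQ was 2. In 5-FU, 1 member was called lower (FZD3, 10.1% of all genes) and 0 higher (10.3%). In Combi, 1 was called higher (DKK1, 13.6%) and 0 lower (6.58%). In SARB, 4 were called lower (FZD3, FZD7, DKK2 and DKK4, 19.9%) and 0 higher (8.63%). Of the 4 in SARB, DKK2 and DKK4 were called lower after TMM and with DESeq2, and 0 of the 4 with cartridge as a block.

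Groups that did not overlap were common on the panel as well. In TQ, 6 members lay wholly below control and 0 above it, where 39.5% and 6.16% of all genes did. In 5-FU 5 lay below and 1 above (27.8% and 16.3%), in Combi 0 below and 1 above (16.7% and 19.3%), and in SARB 6 below and 1 above (28.9% and 13.2%). FZD9 and FZD10 were among those below control in TQ, 5-FU and SARB. FZD10 was under background in every sample, and FZD9 in every control sample. The median log2 fold change of the members was -0.90 for TQ, -0.54 for 5-FU, -0.15 for Combi and -0.68 for SARB. Over all 730 genes it was -0.47, -0.27, -0.10 and -0.41, so the panel as a whole also shifted downward under this scaling. After TMM normalization the medians of the members were -0.47, -0.35, -0.06 and -0.34, against -0.02, -0.07, -0.02 and -0.07 over all genes. The member medians include the 7 members near the background, with FZD10 among them. The mean scaled background was lower in each treated group than in control, and its part in these medians was not tested. The 4 comparisons share the same control samples.

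**Figure D3:**
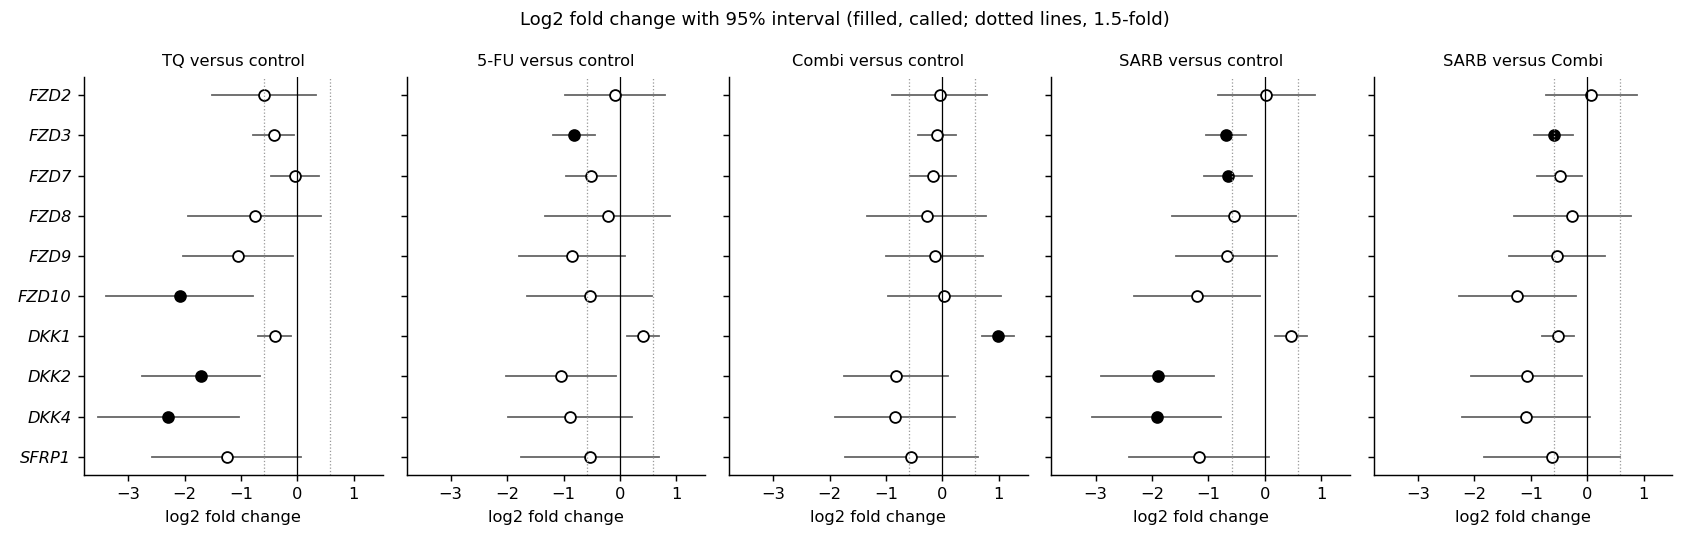
Log2 fold change (x axis) of each of the 10 members (rows) in the 5 comparisons, with the 95% interval as a line, filled points for called genes and dotted lines at a fold change of 1.5. DKK1 is the only member right of 0 by more than its interval in 5-FU, Combi and SARB, and the intervals of DKK2, DKK4, SFRP1 and FZD8 to FZD10 are the widest.

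SARB and Combi were given at the same nominal 35 µM, so the hybrid could be set against the free drugs at a matched dose. All 10 members were compared, with p-values adjusted over the 730 genes. FZD3 was lower in SARB than in Combi by 0.60 on the log2 scale (95% interval -0.94 to -0.26, adjusted p = 0.0146), and it was the 1 member called lower, where 11.4% of all genes were called lower. The number called higher was 0, where 0.959% of all genes were. DKK1 was also lower in SARB, with a log2 difference of -0.52 (95% interval -0.80 to -0.24, adjusted p = 0.0102) that stayed under the fold threshold. FZD7 differed by -0.49 (-0.89 to -0.09, adjusted p = 0.0788), DKK2 by -1.07 (-2.06 to -0.09, adjusted p = 0.119) and DKK4 by -1.08 (-2.21 to 0.06, adjusted p = 0.176).

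For the members near the background the intervals were wide. The log2 difference between SARB and Combi was 0.07 for FZD2 (-0.73 to 0.88), -0.26 for FZD8 (-1.30 to 0.78), -0.54 for FZD9 (-1.39 to 0.31) and -0.62 for SFRP1 (-1.83 to 0.59). FZD10, under background in both groups, was not read. These intervals do not show that the hybrid and the free drugs act alike on these genes. In SARB, 5 members (FZD3, FZD7, FZD9, FZD10 and DKK1) lay wholly below Combi and 0 above, where 28.9% and 4.93% of all genes did. The median was -0.57 for the members and -0.32 for all genes. Both the count and the median include FZD10, although it was under background, and FZD9, which was near it. No cartridge held both groups, so cartridge and treatment cannot be told apart in this comparison except through the controls. FZD3 was not called after TMM (-0.35), with DESeq2 (-0.28), with cartridge as a block (-0.25), with limma on the authors' values (-0.60, adjusted p = 0.0532), in a fit of only these 2 groups (adjusted p = 0.0515), or without Combi replicate 2 (-0.57), Combi replicate 3 (-0.53), SARB replicate 1 (-0.54) or SARB replicate 3 (-0.48). DKK1 was called lower without Combi replicate 1 (-0.59) and without SARB replicate 2 (-0.64), and the latter also called DKK2 (-1.63) and DKK4 (-1.66) lower.

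The panel held 60 other genes of the WNT pathway from a list ordered by role. In TQ, 19 of the 60 were called lower and 2 higher, in 5-FU 7 lower and 6 higher, in Combi 3 lower and 8 higher, in SARB 14 lower and 6 higher, and in SARB against Combi 3 lower and 0 higher. Over all 730 genes the shares called lower were 21.6%, 10.1%, 6.58%, 19.9% and 11.4% in the same order, and the shares called higher 3.42%, 10.3%, 13.6%, 8.63% and 0.959%. With cartridge as a block the number of these genes called in either direction was 4 instead of 21 for TQ, 7 instead of 13 for 5-FU, 7 instead of 11 for Combi, 9 instead of 20 for SARB and 0 instead of 3 for SARB against Combi. It was 12 in TQ with counts under 20 set to 20, 9 in TQ without TQ replicate 2, and 11 in SARB without control replicate 3. In SARB against Combi it was 15 without SARB replicate 2 and 1 without SARB replicate 1. Among the 13 WNT ligands, 6 were called lower in TQ, and the ligands' median log2 fold change was -1.54 there, -0.04 in 5-FU, 0.14 in Combi and -0.73 in SARB, beside medians over all genes of -0.47, -0.27, -0.10 and -0.41. The scaled negative probes averaged 14.9 counts over the control samples, against 5.46 (TQ), 9.51 (5-FU), 9.39 (Combi) and 7.83 (SARB). The part of this lower background in the ligand medians and calls was not tested. Of 12 target genes, the number called higher was 2 under TQ, 4 under 5-FU, 3 under Combi and 4 under SARB, and the number called lower was 0, 2, 2 and 3.

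WNT7B, a ligand, stood at 29.9 ± 12.54 scaled counts in control (SD, n = 3) and at 93.8 ± 11.6 in 5-FU, 88.2 ± 17.4 in Combi and 98.2 ± 16.8 in SARB. Its log2 fold changes were 1.63, 1.55 and 1.68 (adjusted p = 4.80e-05, 4.69e-05 and 2.35e-05). The background thresholds of the control samples were 19.2, 35.5 and 37.3 scaled counts. The control mean of WNT7B lay near them, which limits the size of these fold changes. The AP-1 factors JUN and FOSL1, both targets of the pathway, were called higher in 5-FU (1.19 and 1.17) and in Combi (1.75 and 1.29). The cyclin gene CCND3 rose by 1.39 in Combi and RAC2, a small GTPase, by 1.28 in 5-FU.

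RNF43 encodes a ubiquitin ligase that removes Frizzled receptors from the cell surface. It stood at 99.1 ± 38.9 in control, 82.7 ± 4.52 in Combi and 35.9 ± 7.26 in SARB, and it was called lower in SARB against control (-1.50, adjusted p = 0.000195) and against Combi (-1.24, adjusted p = 0.00273). The ligand WNT3 was lower in SARB than in Combi by 0.68 on the log2 scale (adjusted p = 0.0305). In TQ, CAMK2B, a kinase of the calcium branch, was called lower (-1.97), with means of 35.6 scaled counts in control and 10.1 in TQ. SOX17, which opposes β-catenin, was called lower as well (-1.93), with means of 57.6 and 16.9. The background thresholds were 19.2, 35.5 and 37.3 scaled counts in the control samples and 13.6, 5.24 and 13.1 in the TQ samples. The CAMK2B means lay near the thresholds in both groups, and the SOX17 mean lay near them in TQ. The scaled background was lower in TQ too, and its part in these 2 calls was not tested. The ligands WNT2 and WNT5A also met the call in TQ, with means of 18.6 and 12.1 scaled counts in control and 4.85 and 3.74 in TQ. In SARB, WNT5A and the antagonist SFRP4 met it, with means of 4.24 and 1.81 there and 12.1 and 5.37 in control. Beside negative-probe means of 14.9 in control, 5.46 in TQ and 7.83 in SARB, these levels give no fold change of the transcripts.

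Of 469 genes above background in at least 12 samples, those most like DKK1 and FZD3 over the 15 samples were named by Pearson's r of log2 scaled counts, as a description. For DKK1 they were IL6R (r = 0.955) and COL4A5 (0.935). For FZD3 they were ID1 (0.901) and ARID2 (0.887). The samples share their groups, their cartridges and the housekeeping scaling.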

How the data were processed

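The authors counted transcripts of 15 HCT116 samples with a NanoString nCounter panel and processed them in nSolver. They deposited raw counts per probe and normalized signal values, scaled by the geometric mean of the housekeeping genes and, as the values show, with background subtracted. Their table of fold changes and p-values was not used. Here R 4.3.3 was used. Raw counts of 730 endogenous genes, with the housekeeping geometric mean as effective library size, entered 1 quasi-likelihood fit of 5 groups in edgeR 4.0.16, with Benjamini-Hochberg adjustment over all genes. The script was tested on simulated data. Alternatives were TMM, DESeq2 1.42.0, a filter of at least 20 counts in 3 samples, counts under 20 set to 20, limma 3.58.1 on the deposited normalized values, cartridge or replicate number as a block, only the 2 groups compared, and leaving out each sample.

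The members and lists were chosen with earlier results of these data known. All 10 members were named. Of the other WNT genes, up to 4 per comparison were named, those with the largest log2 fold change among called genes whose samples did not overlap. For each member above background in at least 12 samples, the 2 genes with the highest r were named, and those of FZD7 are not reported here. The labels do not say whether the 3 samples of a group were separate cultures, so p-values measure only the spread between these samples. Counts from 1 to 47 lie behind the members near the background, which limits their precision. Gene positions and the promoter came from RefSeq tables (GRCh38.p14), in which all 10 symbols matched.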

Additional observations from a re-analysis of the deposited data

How the results depend on the processing

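The alternatives other than leaving out 1 sample gave 385 log2 fold changes of members. Of these, 323 kept their direction and side of the threshold, 23 no longer passed, 7 newly passed and 32 changed sign. Leaving out 1 sample gave 262, 12, 8 and 18 of 300. The number of members called in TQ (3) was 1 with limma on the authors' values and 0 with cartridge as a block. It was also 0 with counts under 20 set to 20, where the TQ counts of these 3 members had all become 20. In 5-FU (1, FZD3) it was 2 after TMM, 2 with DESeq2 and 2 with cartridge as a block, each adding DKK1 as higher, and 2 in a fit of only the 2 groups, adding DKK2 as lower. In SARB (4, all lower) it was 1 with cartridge as a block, which was DKK1, called higher, so that 0 of the 4 were kept. In SARB against Combi (1) it was 0 after TMM, DESeq2, limma, cartridge as a block and the fit of only the 2 groups. With 1 sample left out it ranged from 0 (without TQ replicate 2) to 3 in TQ, 1 to 2 (without control replicate 1) in 5-FU, 1 to 1 in Combi, 3 to 5 (without SARB replicate 1) in SARB, and 0 to 4 (without SARB replicate 2) in SARB against Combi.

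After TMM, log2 fold changes that turned sign were 0.046 for FZD3, 0.46 for FZD7 and 0.061 for DKK1 in TQ, 0.086 for FZD2 in 5-FU, and 0.038 for FZD2 and 0.0033 for FZD3 in Combi. With DESeq2 they were 0.082, 0.48 and 0.098 for FZD3, FZD7 and DKK1 in TQ, 0.092 for FZD2 in 5-FU, and 0.022 for FZD8 in SARB against Combi. With counts under 20 set to 20 they were -1.09 for FZD10 in Combi, -0.46 for FZD2 in SARB, and 0.068 for FZD8 and 0.22 for FZD10 in SARB against Combi. With limma on the authors' values they were 0.70, 0.58 and 0.026 for FZD2, FZD8 and FZD9 in TQ, 1.58 and 0.30 for FZD2 and FZD8 in 5-FU, 1.52 and 0.87 for FZD2 and FZD9 in Combi, 0.54 for FZD8 in SARB and 0.86 for FZD8 in SARB against Combi. With cartridge as a block they were 0.17 for FZD7 in TQ, 0.54 for SFRP1 in 5-FU, 0.22, 0.054 and -0.016 for FZD2, FZD7 and FZD10 in Combi, -0.62 for FZD2 in SARB, and -0.84 for FZD2 and 0.63 for SFRP1 in SARB against Combi. Setting counts under 20 to 20 acts on raw counts before scaling. The raw counts of FZD10 were 6 to 8 in control, 4 to 9 in SARB and 9 to 23 in Combi. Nearly all of them became 20, so the FZD10 values under that setting mainly carry the scaling factors. The cause of the other sign changes was not tested.

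With 1 sample left out, FZD2 ranged from -0.31 to 0.37 in 5-FU, -0.27 to 0.41 in Combi, -0.19 to 0.49 in SARB and -7.73e-05 to 0.17 in SARB against Combi. FZD7 ranged from -0.28 to 0.078 in TQ, FZD8 from -0.82 to 0.12 in 5-FU and -0.67 to 0.040 in SARB against Combi, and FZD9 from -0.26 to 0.019 and FZD10 from -0.10 to 0.19 in Combi. Samples with the same replicate number did not deviate together (r from -0.67 to 0.39, over 0.1 in 9 of 30 pairs), and the replicate block left the members called at 3 in TQ, 1 in 5-FU, 1 in Combi, 4 in SARB and 1 in SARB against Combi, and moved the other WNT genes called in SARB against Combi from 3 to 1. The filter removed FZD8, FZD9 and FZD10, and DESeq2 gave no adjusted p for FZD10 in TQ.

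Signal over background limits 7 of the 10 members, and 3 samples a group limit all of them. Cartridge 1 held 1 control sample and cartridge 3 held Combi alone, so the block left 1 control against TQ, 5-FU and SARB. For Combi it left replicate 1 against control replicates 2 and 3.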
